A study of Homo sapiens with 4 samples.

Results

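The 7 genes CEP55, CIT, ANLN, ECT2, PRC1, RACGAP1 and DIAPH3 act at the end of mitosis and were followed in UM-UC-3 cells, an established human bladder cancer cell line. They were matched by Ensembl identifier to their symbols in all 4 deposited tables, which left 7 genes of the 24039 listed in every table. The genes were chosen by their CPM and their change against control siRNA in these same libraries, so their values are given as a description, with no test. CPM is the number of reads of a gene scaled to a common library total.

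The cells were transfected with 75 nM siRNA and their total RNA was sequenced after 48 h, with 1 library for each of 4 conditions: control siRNA, si-hnRNPK, si-lncRNA-LBCS and si-PTBP1. Each knockdown used 2 siRNAs together, and all 4 conditions share the parental cell line and the transfection reagent. Among the urothelial markers, UPK1A, UPK1B, UPK2 and GATA3 were below 1 CPM in every library. FOXA1 and PPARG reached 1 CPM in the control library, the si-lncRNA-LBCS-labelled library or both. Of 16 urothelial and epithelial markers, 5 reached 1 CPM in the control library, among them KRT8 at 63.0 CPM and KRT18 at 121 CPM, whereas all 7 mesenchymal markers did, with VIM at 2343 CPM. None of 10 white blood cell markers reached 1 CPM in the control library, and 6 were not matched in any table. ITGAM reached 2.78 CPM in si-hnRNPK, and its part in the results was not tested.

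With 1 library per condition there was no replicate check, and no p-value is given. Each change carries a 95% interval computed from a gene's read numbers in both libraries (exact Clopper-Pearson), which covers counting error only and not the spread between cultures. The libraries held between 54301152 and 70232674 reads on listed genes. In the si-hnRNPK library HNRNPK itself stood at 188 CPM against 783 CPM in the control library, which is 24.0% of control. A part of these reads may come from the processed pseudogenes HNRNPKP1, HNRNPKP2 and HNRNPKP4, which hold both siRNA target sites. In the si-PTBP1 library PTBP1 stood at 89.7 CPM against 280 CPM, which is 32.0% of control. LNC-LBCS, the gene that both siRNAs of the third knockdown match, stood at 1.47 CPM in the si-lncRNA-LBCS-labelled library and at 1.79 CPM in the control library. These values rest on 103 and 110 reads, the ratio was 81.8% (interval 61.9 to 108), and a level below control was not detectable at this depth. In si-hnRNPK and si-PTBP1 the gene stood at 3.43 and 3.82 CPM, on 186 and 214 reads. These levels were 191% and 213% of control. The si-lncRNA-LBCS-labelled library lay below both, while its order relative to control is within counting error.

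Cytokinesis divides the daughter cells after the chromosomes have separated. Bundled microtubules between the separating chromosomes, the central spindle, call the small GTPase RhoA to the cell equator, where it builds a contractile ring of actin and myosin. The ring closes onto the remaining microtubule bundle to form the midbody, and the membrane there is cut by the ESCRT machinery in a last step called abscission. Many genes of this machinery are transcribed late in the cell cycle, in G2 and mitosis, and their promoters often carry a CHR element, to which the DREAM and MuvB complexes bind, and CCAAT boxes, to which NF-Y binds.

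The promoter sequences are shown first, since genes that move together may share such elements. RefSeq promoter windows on GRCh38.p14, running from 250 bases before to 50 bases after the transcript start, were matched by symbol for 6 of the 7 genes, and RACGAP1 had no entry. The letters TTTGAA, the CHR core, were searched on both strands, as were CCAAT, the NF-Y box, and TTTCGCGC or TTTGGCGC for E2F. In the stretches that follow, printed 5′ to 3′ on the strand of the gene, capitals mark the CHR core and the NF-Y box in either orientation, and the reverse forms read TTCAAA and ATTGG. CEP55 (chr10:93496486-93496624, plus strand) and CIT (chr12:119877295-119877543, minus strand) are shown because they were the lowest of the 7 genes relative to control after si-hnRNPK. ANLN (chr7:36389826-36389857, plus strand) has 2 CHR cores back to back, PRC1 (chr15:90994540-90994598, minus strand) has a single match of each kind, and DIAPH3 (chr13:60163954-60164044, minus strand) has no CHR core in its window.
CEP55: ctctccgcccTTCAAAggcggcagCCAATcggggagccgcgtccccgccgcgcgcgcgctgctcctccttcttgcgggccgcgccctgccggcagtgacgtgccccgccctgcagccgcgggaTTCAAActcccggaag
CIT: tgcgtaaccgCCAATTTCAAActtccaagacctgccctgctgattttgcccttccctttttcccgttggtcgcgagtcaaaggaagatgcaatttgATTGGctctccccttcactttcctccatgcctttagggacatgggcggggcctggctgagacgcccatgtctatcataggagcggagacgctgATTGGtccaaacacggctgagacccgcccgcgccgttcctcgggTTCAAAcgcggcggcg
ANLN: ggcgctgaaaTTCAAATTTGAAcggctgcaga
PRC1: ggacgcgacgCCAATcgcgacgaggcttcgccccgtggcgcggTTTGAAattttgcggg
DIAPH3: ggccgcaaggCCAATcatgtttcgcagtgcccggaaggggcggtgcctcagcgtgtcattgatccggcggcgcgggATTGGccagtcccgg

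The CHR core was found in 5 of the 6 promoters (CEP55, CIT, ANLN, ECT2 and PRC1), against 15.2% of all 35116 RefSeq promoter windows of the same length. CCAAT was found in 5 of the 6 (all except ANLN), against 34.6% of all windows, and both stood in 4 of the 6 (CEP55, CIT, ECT2 and PRC1), against 5.90%. The searched E2F letters were in none of the 6 windows and in 1.15% of all windows. In PRC1 the CCAAT began 53 bases and the CHR core 20 bases before the start. In CIT the first CCAAT abutted a reverse CHR core, and a second reverse CHR core lay after the start. In ECT2 a CHR core began 115 bases before the start, ahead of 3 CCAAT boxes. A second RefSeq window of ECT2 held CHR cores without CCAAT, and a second window of DIAPH3 held neither. These are matches of short letters, and binding was not measured here.

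**Figure D1:**
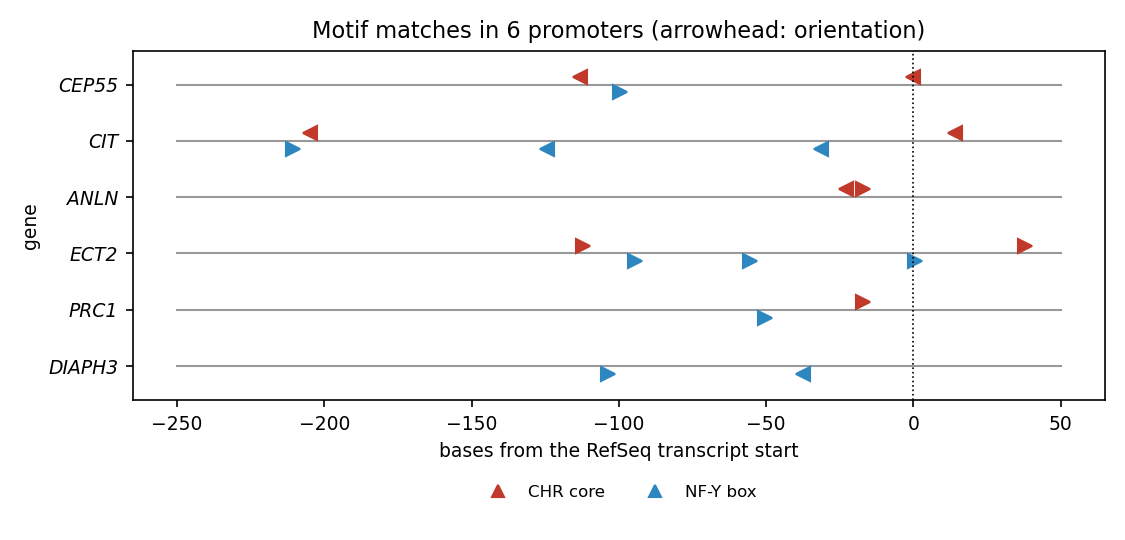
Positions of CHR cores (red) and NF-Y boxes (blue) in the first RefSeq promoter window of 6 genes, in bases from the transcript start (dotted line), with arrowheads giving the orientation. All genes except DIAPH3 show at least 1 CHR core, and all except ANLN show at least 1 NF-Y box.

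All 7 genes had their lowest level in the si-hnRNPK library. The sum of their levels was 1753 CPM in the control library, 835 CPM in si-hnRNPK, 1597 CPM in the si-lncRNA-LBCS-labelled library and 1433 CPM in si-PTBP1. In si-hnRNPK, CEP55 and CIT were lowest relative to control, at 23.7% and 26.0% of it, and PRC1 and RACGAP1 stood at 43.7% and 44.9%. ANLN, ECT2 and DIAPH3 were between 56.7% and 60.5% of control. Because these are bulk libraries, fewer cells in late G2 and mitosis and less RNA per cell cannot be told apart.

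**Figure D2:**
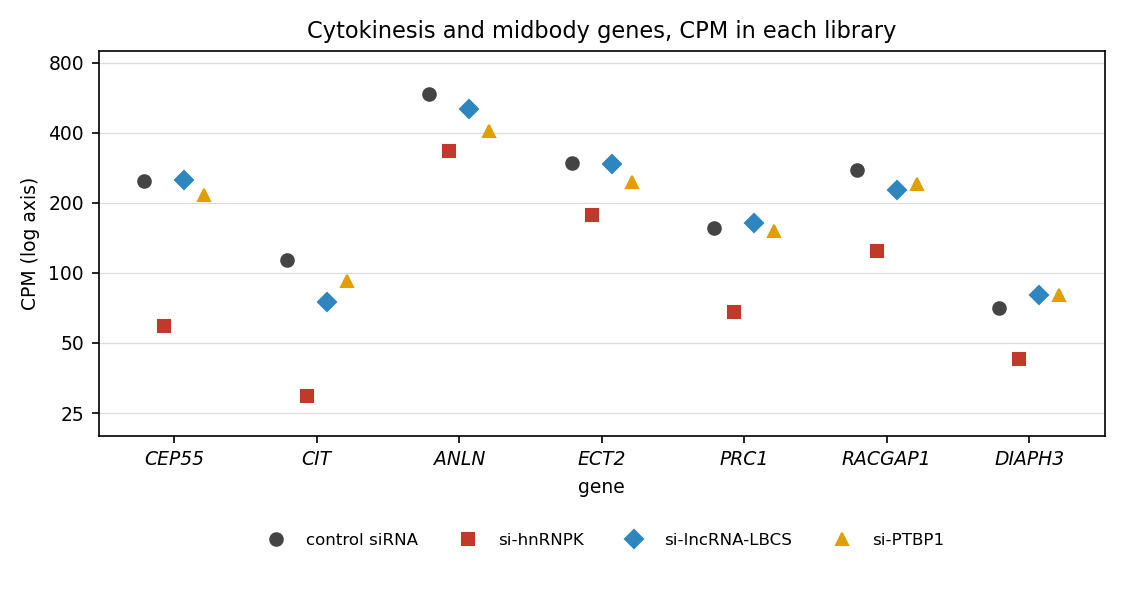
CPM (log axis) of the 7 genes in the 4 libraries, 1 point per library. For each gene the si-hnRNPK point (red square) is the lowest, from 29.5 CPM for CIT to 334 CPM for ANLN.

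CEP55 (ENSG00000138180, chr10:93496632-93529092 on GRCh38) encodes the midbody protein that recruits ALIX and TSG101, and with them the ESCRT machinery, to the abscission site. It stood at 249 CPM in the control library, 59.1 CPM in si-hnRNPK, 251 CPM in the si-lncRNA-LBCS-labelled library and 217 CPM in si-PTBP1. The si-hnRNPK library stood apart, at 23.7% of control (interval 22.9 to 24.7), while the remaining 3 libraries lay close together. On the log2(CPM + 1) scale, used for every change here, the difference from control was −2.06 (interval −2.11 to −2.00) in si-hnRNPK. It was 0.01 (−0.02 to 0.04) in the si-lncRNA-LBCS-labelled library and −0.20 (−0.23 to −0.17) in si-PTBP1. Of the 13672 genes compared in si-hnRNPK, CEP55 had the fifth lowest change.

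CIT (ENSG00000122966, chr12:119685790-119877291) encodes citron kinase, which organizes the midbody. Its levels were 114 CPM (control), 29.5 CPM (si-hnRNPK), 75.0 CPM (si-lncRNA-LBCS-labelled library) and 91.9 CPM (si-PTBP1). CIT was thus below control in all 3 knockdown libraries, and lowest in si-hnRNPK at 26.0% of control (interval 24.6 to 27.4). Its changes were −1.91 (−1.99 to −1.83), −0.59 (−0.65 to −0.54) and −0.30 (−0.36 to −0.25) in the same order. The value of −0.59 was the lowest among the 7 genes in the si-lncRNA-LBCS-labelled library.

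PRC1 (ENSG00000198901, chr15:90966038-90995629) cross-links antiparallel microtubules and so builds the central spindle. It stood at 156 CPM in control, 68.2 CPM in si-hnRNPK, 163 CPM in the si-lncRNA-LBCS-labelled library and 151 CPM in si-PTBP1. Only the si-hnRNPK level lay away from the others, at 43.7% of control, with a change of −1.18 (−1.24 to −1.13). The changes in the remaining libraries were 0.06 (0.02 to 0.10) and −0.05 (−0.09 to −0.01). In GENCODE release 29, PRC1 shares 3181 exonic bases with AC068831.7 on its own strand and 406 with PRC1-AS1 on the other strand. A part of the PRC1 reads could therefore not be assigned with certainty, and AC068831.7 is not listed in the deposited data. CIT shares 91 exonic bases with MIR1178 on its own strand, which is not listed either. The exons of CIT, ANLN, RACGAP1 and DIAPH3 overlap genes on the other strand by 137 bases or fewer, and without a stated strand setting those reads cannot be told apart.

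RACGAP1 (ENSG00000161800, chr12:49976923-50033136) encodes the GTPase-activating subunit of centralspindlin, which it forms with KIF23, and it binds ECT2. RACGAP1 was measured at 277 CPM in control and 125 CPM in si-hnRNPK, and at 227 CPM and 241 CPM in the si-lncRNA-LBCS-labelled and si-PTBP1 libraries. The si-hnRNPK level was 44.9% of control, a change of −1.15 (−1.19 to −1.11). The other 2 libraries lay closer to control, with changes of −0.29 (−0.32 to −0.26) and −0.20 (−0.23 to −0.17).

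ECT2 (ENSG00000114346, chr3:172750682-172821474) is the exchange factor that loads RhoA with GTP at the equator. It stood at 297 CPM in control, 177 CPM in si-hnRNPK, 293 CPM in the si-lncRNA-LBCS-labelled library and 246 CPM in si-PTBP1. Its si-hnRNPK level was 59.5% of control, a change of −0.74 (−0.78 to −0.71), and si-PTBP1 gave −0.27 (−0.30 to −0.24). In the si-lncRNA-LBCS-labelled library a difference from control was not detectable within counting error (−0.02, interval −0.05 to 0.01).

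ANLN (ENSG00000011426, chr7:36389806-36453791) encodes anillin, the scaffold that ties actin, myosin and septins in the ring. The gene had 589 CPM in control, 334 CPM in si-hnRNPK, 508 CPM in the si-lncRNA-LBCS-labelled library and 406 CPM in si-PTBP1. All 3 knockdown libraries were below control, with changes of −0.82 (−0.84 to −0.79), −0.22 (−0.24 to −0.19) and −0.54 (−0.56 to −0.51). ANLN was the lowest of the 7 genes in si-PTBP1.

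DIAPH3 (ENSG00000139734, chr13:59665583-60163987) encodes a formin that assembles unbranched actin filaments. It stood at 70.6 CPM in control, 42.8 CPM in si-hnRNPK, 80.4 CPM in the si-lncRNA-LBCS-labelled library and 80.7 CPM in si-PTBP1. DIAPH3 was therefore below control in si-hnRNPK, by −0.71 (−0.78 to −0.64), and above it in the other knockdown libraries, by 0.18 (0.13 to 0.24) and 0.19 (0.13 to 0.25).

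**Figure D3:**
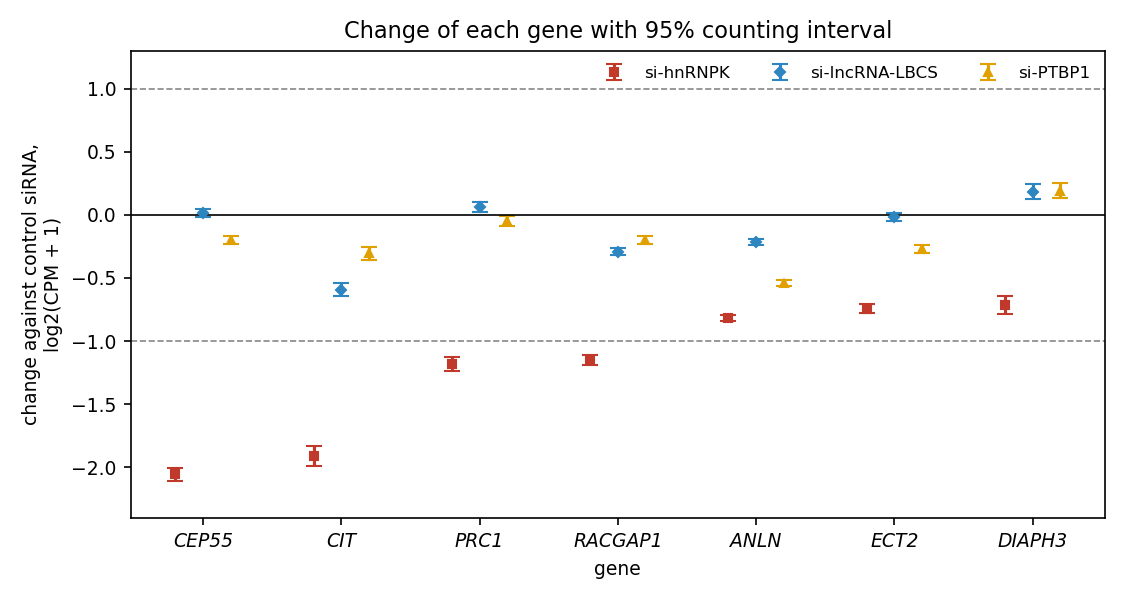
Change of each gene against control siRNA on the log2(CPM + 1) scale, ordered by the si-hnRNPK change; bars are 95% counting intervals and dashed lines mark a change of 1 in either direction. CEP55, CIT, PRC1 and RACGAP1 lie below −1 in si-hnRNPK, and no gene passes either line in the other knockdown libraries.

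A change of at least 1 in either direction, a doubling or halving of CPM + 1, was used as the threshold. In si-hnRNPK, 4 of the 7 genes were lower by at least 1, as were 3.93% of all 13672 genes compared, whereas 3.55% of all genes and none of the 7 were higher by at least 1. With median-of-ratios scaling the balance of all genes turned, to 374 lower and 610 higher from 537 and 486, while 4 of the 7 genes still passed. Below control by any amount were 58.4% of all genes. Since the genes were chosen on this contrast, nothing is read from these counts. RACGAP1 (−1.15) lay just inside the threshold and ANLN (−0.82) just outside it. In order of change, PRC1 and RACGAP1 overlapped in their counting intervals, as did ECT2 and DIAPH3, while the other neighbours did not. The median of the 7 genes was −1.15 in si-hnRNPK, and the median of all genes was −0.11. With the mean log2 level of the other 2 knockdown libraries as the reference, an alternative chosen after seeing the data that leaves out the control library, 3 of the 7 genes passed, RACGAP1 stood at −0.90, and 369 of all genes were lower and 316 higher by at least 1.

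In the si-lncRNA-LBCS-labelled library, 0 of the 7 genes were past the threshold, against 1.01% of all genes lower and 0.378% higher by at least 1. The median of the 7 was −0.02 beside −0.01 over all genes, with 4 genes below and 3 above control and 51.8% of all genes below it. In si-PTBP1, 0 of the 7 genes were past the threshold, against 0.613% of all genes lower and 2.92% higher. These were 85 and 404 genes, and with median-of-ratios scaling 132 and 256. Here the median of the 7 was −0.20 beside 0.12 over all genes, and 6 of the 7 genes were below control, against 36.5% of all genes. All 3 comparisons share the control library, so their values are given side by side only.

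**Figure D4:**
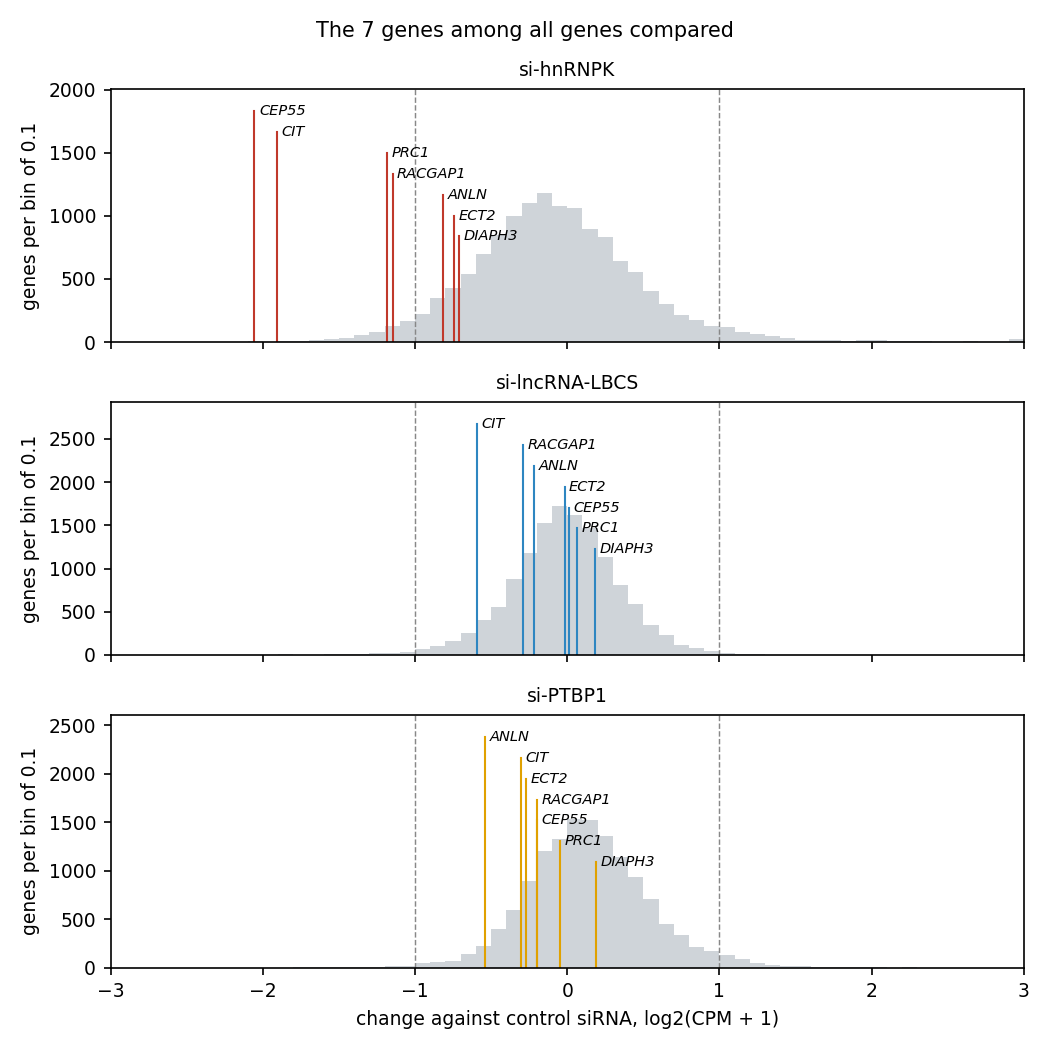
Number of genes per bin of 0.1 by change against control siRNA on the log2(CPM + 1) scale, for each knockdown library, with the 7 genes as vertical lines whose heights carry no value; changes beyond 3 are placed in the outermost bins. In si-hnRNPK the 7 genes lie between −2.06 and −0.71, to the left of the median of all genes at −0.11.

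Levels of different genes were compared per length, as CPM per kb of the union of annotated exons in GENCODE release 29. In the control library ANLN was highest at 98.1 CPM per kb, followed by CEP55 at 76.2, RACGAP1 at 61.8, ECT2 at 54.0, PRC1 at 28.2, DIAPH3 at 9.49 and CIT at 8.60 CPM per kb. In si-hnRNPK the order per kb was ANLN (55.6), ECT2 (32.2), RACGAP1 (27.8), CEP55 (18.1), PRC1 (12.3), DIAPH3 (5.75) and CIT (2.23). CEP55 thus came next after ANLN per length in the control library, and in si-hnRNPK it stood below ANLN, ECT2 and RACGAP1. Neighbours in both orders did not overlap in their counting intervals. In si-PTBP1, CEP55 (66.3 CPM per kb) and ANLN (67.5 CPM per kb) did. The exon union also counts exons that UM-UC-3 may not use, and CIT has the longest union, 13230 bases, among the 7 genes.

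Seed matches of the siRNAs were searched because an siRNA can lower RNAs that pair with guide bases 2 to 8 through their 3′ UTR. The 2 siRNAs of si-hnRNPK are shown as sense strands 5′ to 3′, with the bases that pair with the guide seed in capitals. Below them stand the matching sites in the longest annotated 3′ UTR of CEP55 (siRNA-1, chr10:93528231-93528255, plus strand), CIT (siRNA-2, chr12:119685870-119685894, minus strand) and PRC1 (siRNA-2, chr15:90966625-90966649, minus strand) on GRCh38, with the same letters in capitals.
si-hnRNPK siRNA-1: ggguuguagagUGCAUAAatt
si-hnRNPK siRNA-2: gccuccaucuaGAAGAGAutt
CEP55 site: atttcacatttTGCATAAaactgcc
CIT site: ttcagaacgagGAAGAGAacacaag
PRC1 site: gccttcctcctGAAGAGAatgtctt

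RACGAP1, ANLN, ECT2 and DIAPH3 held neither letter string. The siRNA-1 letters occur in the 3′ UTR of 9.58% of 19146 genes and the siRNA-2 letters in 17.6%. Of the genes compared in si-hnRNPK, the 1294 with a siRNA-1 match had a median change of −0.25 and the 10409 without one −0.08. For siRNA-2 the medians were −0.15 over 2304 genes with a match and −0.09 over 9399 without. Among genes with a siRNA-1 match 5.49% were lower by at least 1, against 3.67% of those without, and for siRNA-2 the shares were 4.12% and 3.81%. The part of seed matches in the levels of CEP55, CIT and PRC1 was not tested. One si-PTBP1 siRNA, whose seed letters occur in 11.3% of all genes, had a match in CIT and RACGAP1, which were at 80.8% and 87.0% of control in that library. ANLN, ECT2, CEP55, PRC1 and DIAPH3, without that match, were at 68.8%, 82.9%, 87.0%, 96.6% and 114%. Of the genes compared in si-PTBP1, the 1545 with that match had a median change of 0.07 and the 10207 without it 0.13. Lower by at least 1 were 1.04% of those with the match and 0.627% of those without. The part of this match in the levels of CIT and RACGAP1 was not tested. No seed match of the control siRNA or of the siRNAs of the si-lncRNA-LBCS-labelled library was found in the 7 genes.

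The remaining genes of the pathway were taken from 4 lists with 89 genes. The list of the central spindle and the chromosomal passenger complex, the kinase complex that moves from centromeres to the central spindle, had a median of −1.05 in si-hnRNPK, beside −0.11 over all genes. Of its 15 genes all 15 were below control, against 58.4% of all genes, and 9 were lower by at least 1, against 3.93%. With median-of-ratios scaling 7 of the 15 passed. PLK1, the kinase that licenses ECT2 to bind RACGAP1, went from 74.0 CPM in control to 20.6 CPM in si-hnRNPK, a change of −1.80 (−1.89 to −1.71). KIF20A, the kinesin that carries the passenger complex to the central spindle, went from 307 to 108 CPM (−1.50, interval −1.54 to −1.45). KIF14, a kinesin that binds PRC1 and citron kinase, went from 79.9 to 28.0 CPM (−1.48, interval −1.56 to −1.40). In the si-lncRNA-LBCS-labelled library and in si-PTBP1 none of the 15 genes passed the threshold, and the medians were −0.03 and −0.07. Of all genes, 1.01% and 0.613% were lower and 0.378% and 2.92% higher by at least 1 in these libraries.

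The RhoA module and contractile ring list had values close to those of all genes. Of its 28 genes, 27 were compared in si-hnRNPK, with 16 below and 11 above control and a median of −0.10, where 58.4% of all genes were below control. By at least 1, 1 gene was lower and 1 higher, against 3.93% and 3.55% of all genes. ARHGAP11A, a GTPase-activating protein, was lower by at least 1, at 157 CPM in control and 69.7 CPM in si-hnRNPK (−1.16, interval −1.21 to −1.10). MYH10, the non-muscle myosin IIB heavy chain, had 117 and 61.1 CPM (−0.92), and DIAPH1, a formin related to DIAPH3, 72.8 and 47.6 CPM (−0.60). RHOB, a small GTPase of endosomes, was higher, with 23.2 CPM in control and 49.3 CPM in si-hnRNPK (1.05, interval 0.96 to 1.15), and its changes in the si-lncRNA-LBCS-labelled and si-PTBP1 libraries were 0.75 and 1.13. Against the mean of the other 2 knockdown libraries RHOB differed by 0.11 only, and ARHGAP11A stood at −0.87. MYL6, a myosin light chain, was at 194 CPM in control and 369 CPM in si-hnRNPK (0.92), and its changes in the other libraries were 0.64 and 0.81. Past the threshold were 0 of the 27 genes in the si-lncRNA-LBCS-labelled library, with a median of 0.01, and RHOB alone in si-PTBP1, with a median of 0.15. Of all genes, 1.01% and 0.613% were lower and 0.378% and 2.92% higher by at least 1 there.

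The abscission and ESCRT list was also near all genes. Of its 26 genes, 24 were compared in si-hnRNPK, and 13 were below and 11 above control, with a median of −0.05. Over all genes 58.4% were below control. Past the threshold was 1 of the 24, lower, where 3.93% of all genes were lower and 3.55% higher by at least 1. SPAST, the microtubule-severing ATPase spastin, had 53.3 CPM in control and 23.2 CPM in si-hnRNPK (−1.17, interval −1.26 to −1.08), and was the only gene of the list past the threshold there. ZFYVE19, a regulator of the abscission checkpoint, was at 16.4 and 8.29 CPM (−0.91, interval −1.06 to −0.76). TSG101, the ESCRT-I subunit that CEP55 recruits, was at 27.5 and 16.6 CPM (−0.69, interval −0.81 to −0.58). The highest changes were those of CHMP1A (0.43) and MVB12A (0.39), which belong to ESCRT-III and ESCRT-I. No gene of the list passed the threshold in the si-lncRNA-LBCS-labelled and si-PTBP1 libraries. Of all genes, 1.01% and 0.613% were lower and 0.378% and 2.92% higher by at least 1 there.

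In the list of midbody membrane traffic, which holds Rab GTPases, the exocyst and fusion proteins, 18 of 20 genes were compared in si-hnRNPK and none passed the threshold. Of all genes, 3.93% were lower and 3.55% higher by at least 1. There were 9 below and 9 above control, with a median of −0.01, where 58.4% of all genes were below control. RAB11B (−0.50), DENND1A (−0.37) and RAB8A (−0.32) were the lowest and EXOC4 (0.53) and RAB11A (0.41) the highest of those at 10 CPM or more. Against the mean of the other 2 knockdown libraries, DENND1A (0.14) and EXOC4 (−0.15) turned in sign. RAB8A (−0.06) and RAB11A (0.08) were smaller there, and RAB11B stood at −0.35. STX2 alone was higher by at least 1 in the si-lncRNA-LBCS-labelled library, of 18 genes compared, and in si-PTBP1, of 19. Over all genes the shares were 0.378% and 2.92%.

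**Figure D5:**
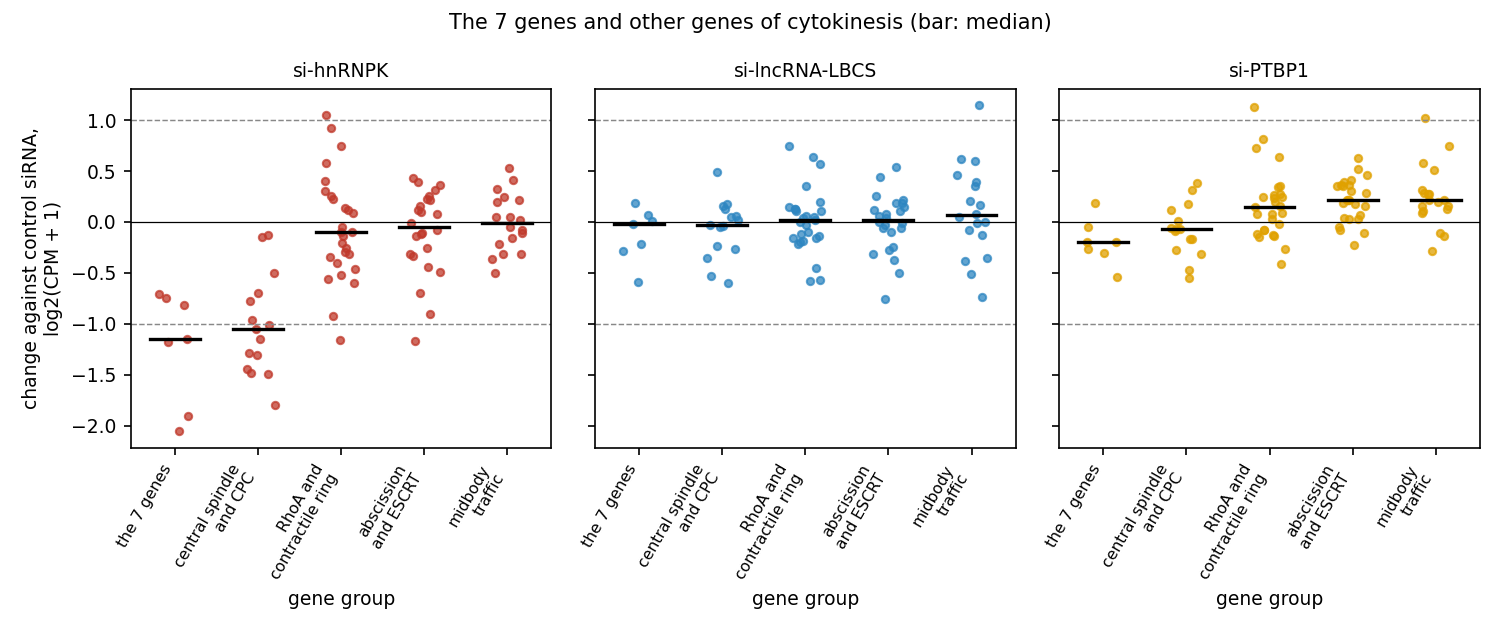
Change against control siRNA on the log2(CPM + 1) scale for the 7 genes and for 4 lists of other cytokinesis genes, 1 point per gene, with the median as a bar and dashed lines at a change of 1 in either direction. In si-hnRNPK the medians of the 7 genes (−1.15) and of the central spindle list (−1.05) lie below those of the other 3 lists, which are between −0.10 and −0.01.

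Other genes of the cell cycle were also lower in si-hnRNPK. Of 40 other G2/M genes, all 40 were below control in si-hnRNPK and 29 were lower by at least 1, with a median of −1.20 and a sum of 3396 CPM against 8090 CPM. Over all genes 58.4% were below control and 3.93% lower by at least 1. Of 41 S phase genes compared, 40 were below control and 17 were lower by at least 1, with a median of −0.83 and a sum of 2439 CPM against 4557 CPM. The 12 housekeeping genes had a median of −0.04, and none was past the threshold. In si-PTBP1, 39 of the 40 other G2/M genes were below control with a median of −0.32, against 36.5% of all genes, and in the si-lncRNA-LBCS-labelled library 25 of the 40 were, with a median of −0.05, against 51.8% of all genes. The part of the cells' cycle stage in the levels of the 7 genes was not tested.

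The genes whose pattern was most like the mean of the 7 were found by the Euclidean distance of the 3 log2 changes, over 9610 genes at 10 CPM or more in the highest of the 4 libraries. The mean itself was −1.22, −0.12 and −0.20 in the order si-hnRNPK, si-lncRNA-LBCS and si-PTBP1. The nearest gene was NCAPD2, a condensin subunit, at a distance of 0.06, with changes of −1.20, −0.17 and −0.18. It was followed by NCAPH, E2F2, BLM, CDKN2C, TROAP, CCDC77, SELENOF, CEP97 and TEDC2, at distances between 0.09 and 0.13. NCAPD2 and BLM also stand in the G2/M and S phase lists. Among the 7 genes, RACGAP1 lay nearest to the mean, at 0.18, and CEP55 (0.84) and CIT (0.84) lay farthest from it.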

How the data were processed

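The data were 4 RNA-seq libraries of UM-UC-3 cells, made from total RNA and read as 100-base paired ends. A CPM value per Ensembl identifier was deposited by the authors for each library. The submitters' processing notes name hg19, and the aligner, the counter, its strand setting and the annotation are not given in the sources used here. Values were whole multiples of 1 read, within 0.1 of a read, for 100% of genes with reads, so read numbers were recovered. A placeholder for genes without reads was set to 0, and 3 reads correspond to between 0.0427 and 0.0552 CPM.

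Changes are differences in log2(CPM + 1) between a knockdown library and the control library, for genes listed in both and at 1 CPM or more in at least 1 of them. This scale understates the change of low genes. Symbols matched 25647 of 27629 identifiers. Identifiers were looked up in GENCODE release 29 (GRCh38) for positions, exon unions and 3′ UTRs; the files hold no coordinates. Named were the 7 genes, the targeted genes, up to 3 largest falls and 2 largest rises per pathway list in si-hnRNPK at 10 CPM or more, and the 10 nearest patterns. The cell type markers given singly, STX2, MYH9 and MKI67 were chosen after their values were seen. The genes and lists were chosen with earlier results of these data known. Alternatives were a lower pseudocount (0.1), filters of 0 and 5 CPM, a 1.5-fold threshold, scaling by median-of-ratios, the other 3 libraries' geometric mean as the reference, and an exact binomial test of the reads (Benjamini-Hochberg q of at most 0.05), which compares 2 libraries and not the conditions. The code was tested on simulated data. Tools were statsmodels 0.14.6, scipy 1.17.1, pandas 2.3.3, numpy 2.4.6 and matplotlib 3.10.9 under Python 3.11.15.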

Additional observations from a re-analysis of the deposited data

Results flagged for a closer look

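Of the 7 genes, 2 changed in opposite directions between knockdown libraries, with counting intervals that leave out 0 on both sides, and the differences were not tested, since there is 1 library per condition. DIAPH3 was lower in si-hnRNPK (−0.71) and higher in the si-lncRNA-LBCS-labelled library (0.18) and in si-PTBP1 (0.19). With median-of-ratios scaling, the DIAPH3 values in these 2 libraries were 0.19 and 0.07. PRC1 was lower in si-hnRNPK (−1.18) and higher by 0.0638 in the si-lncRNA-LBCS-labelled library (0.0729 with median-of-ratios scaling), and its reads may include those of an overlapping gene on the same strand.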

How the results depend on the processing

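Each gene of the 7 stayed below its reference in si-hnRNPK under every alternative run, and CEP55, CIT and PRC1 stayed past the threshold of 1. With a threshold of 1.5-fold, 7 of the 7 genes passed in si-hnRNPK and 1 in the si-lncRNA-LBCS-labelled library, the RhoA and abscission lists held 6 and 3 genes past it in si-hnRNPK, and the genes lower and higher were 2165 and 1352 (si-hnRNPK), 774 and 559 (si-lncRNA-LBCS), and 432 and 1673 (si-PTBP1), against 537 and 486, 136 and 51, and 85 and 404 at the threshold of 1. With a pseudocount of 0.1 the genes lower and higher were 995 and 790, 353 and 165, and 173 and 793. Median-of-ratios scaling moved the median of the 7 genes to −1.04 in si-hnRNPK and −0.33 in si-PTBP1, the other G2/M genes to −1.10 and the housekeeping genes to 0.0689, and gave 374 genes lower and 610 higher in si-hnRNPK and 132 lower and 256 higher in si-PTBP1. It set si-hnRNPK by −0.11 and si-PTBP1 by 0.13 relative to control on the log2 scale. With the geometric mean of the other 3 libraries as the reference, the medians of the 7 genes were −0.98, 0.32 and 0.32; the sign turns in the last 2 because the reference then holds the si-hnRNPK library. That reference gave −1.07 for the other G2/M genes, 0 genes of the RhoA list and 1 of the membrane traffic list, 317, 6 and 234 genes higher and 358, 104 and 74 lower. With the other 2 knockdown libraries as the reference, chosen after seeing the data, the median of the 7 was −0.90 and that of the other G2/M genes −1.01, the RhoA, abscission and membrane traffic lists held 0, 2 and 1 genes past the threshold, and 316 genes were higher and 369 lower. No paired analysis was possible because each condition has 1 library. Depth was no limit for the 7 genes, which had at least 1604 reads in each library, whereas the spread between cultures is unknown.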

Other observations

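A pair of cytokinesis genes outside the naming rule is given here, chosen after their values were seen. STX2, a syntaxin of membrane fusion, was the only gene of the membrane traffic list past the threshold in the si-lncRNA-LBCS-labelled library and in si-PTBP1, with 37.7 CPM in control, 30.1 CPM in si-hnRNPK, 84.5 CPM in the si-lncRNA-LBCS-labelled library and 77.3 CPM in si-PTBP1. Its changes were −0.31, 1.15 and 1.02, with the same signs as those of DIAPH3 (−0.71, 0.18 and 0.19). MYH9, the non-muscle myosin IIA heavy chain, had 786 CPM in control, 1318 CPM in si-hnRNPK, 525 CPM in the si-lncRNA-LBCS-labelled library and 831 CPM in si-PTBP1, with changes of 0.75, −0.58 and 0.08.

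MKI67, a proliferation marker of the other G2/M list that was also chosen after its values were seen, had lower changes than the 7 genes in all 3 comparisons. It stood at 601 CPM in control, 95.2 CPM in si-hnRNPK, 256 CPM in the si-lncRNA-LBCS-labelled library and 326 CPM in si-PTBP1, with changes of −2.65, −1.23 and −0.88. In si-PTBP1, 21 of the 25 abscission and ESCRT genes compared were above control, with a median of 0.21 beside 0.12 over all genes, of which 36.5% were below control.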
